A study of Mus musculus with 30 samples.

Results

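Loss of Mif was examined in F4/80-sorted cells from the spleens of leukaemic Eµ-TCL1 mice by setting the 4 arrays titled KO-l-SP against the 3 arrays titled WT-l-SP, 7 of the 30 bead arrays of the study. All detected autosomal genes were compared, 11530 of the 11937 genes tested. Both groups carried 1 copy of the TCL1 transgene (TCL1+/wt) on the C57BL/6 strain, were labelled leukaemic and were labelled 2 to 5 months old. The knockout group was Mif-/-, and the wild-type group had both copies of Mif. In Eµ-TCL1 mice the transgene puts the human TCL1 oncogene under a B-cell enhancer, so that a leukaemia like human chronic lymphocytic leukaemia arises from B cells. The knockout label names no cell type, so by genotype the leukaemic B cells of these mice would lack Mif as well. Only the sorted cells were measured. The other arrays covered leukaemic bone marrow (6 knockout and 5 wild-type arrays) and, from mice without leukaemia labelled 10 to 15 months old, bone marrow and spleen (3 arrays in each of those 4 groups). Because leukaemia in Eµ-TCL1 mice appears as they grow older, the 2 age ranges may have been exchanged in the labels, and age and leukaemia cannot be told apart. The labels do not say which arrays come from separate animals, so p-values measure the spread between arrays, which may be technical.

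Mif encodes macrophage migration inhibitory factor, a cytokine made by macrophages and many other cells. It binds Cd74, the class II invariant chain at the cell surface, which signals with Cd44, and it also engages the chemokine receptors Cxcr2 and Cxcr4. F4/80, the product of Adgre1, marks macrophages of the splenic red pulp, which clear old red cells, and is found at lower levels on monocytes and eosinophils. In leukaemic spleen these cells lie among leukaemic B cells and can supply them with survival signals.

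The targeted gene separated the groups. The normalised log2 intensity of Mif was 4.25, 4.17, 5.07 and 4.97 on the 4 knockout arrays and 11.67, 11.90 and 12.38 on the 3 wild-type arrays. All knockout arrays lay far below all wild-type arrays, and 2 of the 4 knockout arrays still detected the probe. The log2 difference was -7.37 ± 0.34 (SE, n = 4 and 3, limma adjusted p = 2.3e-13). A dimmer Mif probe, detected on none of the knockout arrays, gave -2.69. The sort antigen gene Adgre1 was detected on all 7 arrays at 8.91, 8.82, 7.73 and 10.02 in the knockouts and 9.99, 9.11 and 7.70 in the wild types. The groups overlapped across their whole range, with a difference of -0.06 ± 0.51 (SE) that did not pass the test (limma adjusted p = 0.996).

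Of the arrays, 2 stood apart from their labels. Knockout replicate 2 correlated best with a leukaemic marrow knockout array (r = 0.98), and wild-type replicate 3 with a leukaemic marrow wild-type array (r = 0.984), while the other 5 correlated best with spleen arrays. Sex differed completely between the groups. Xist, the RNA of the inactive X chromosome, lay between 4.17 and 4.39 in the knockouts and between 10.78 and 11.15 in the wild types, and Eif2s3y, from the Y chromosome, lay between 8.12 and 9.05 against 4.13 to 4.25. Genotype and sex therefore cannot be told apart in leukaemic spleen, and X and Y genes were left out of the counts. Elsewhere Xist was high on 1 of 6 knockout and 3 of 5 wild-type arrays of leukaemic marrow. It was also high on 1 of 3 wild-type arrays of non-leukaemic spleen, and low on all arrays of non-leukaemic marrow. A fit with Xist as a covariate takes its slope almost wholly from those other groups. Such a fit cannot separate sex from genotype in leukaemic spleen. Between 38.4% and 41% of the 45281 probes were detected per array.

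Few genes differed beyond the spread between arrays. Of 11530 autosomal genes 5 passed the test (limma, Benjamini-Hochberg adjusted p under 0.05 over all 11937 genes), 0.0434% of those tested, and all 5 were lower in the knockouts. They were Mif itself, 1190007I07Rik, Trappc2l, Zfp979 and Coa6. At an unadjusted p under 0.05 there were 609 genes (5.28%), 251 higher (2.18%) and 358 lower (3.1%). The groups did not overlap at 569 genes (4.93%), 229 higher (1.99%) and 340 lower (2.95%). With so few arrays some genes separate by chance, so a lack of overlap is a description. The typical difference was small, with a median size of 0.137 on the log2 scale, and 131 genes differed by more than 1 log2 unit. Leaving out knockout replicate 2 and wild-type replicate 3 together gave 11 called genes, 3 of them among the 5. Leaving out wild-type replicate 3 alone gave 13, without wild-type replicate 1 there were 2, and without knockout replicate 1 there were 3.

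1190007I07Rik, a gene on chromosome 10 named by its clone, fell with Mif. Its log2 level was 4.21, 4.20, 4.15 and 4.14 in the knockouts, where no array detected it, and 6.27, 6.29 and 5.43 in the wild types, where every array did. The knockout level was therefore at least 3-fold lower, set against the lowest detected level of each array, and the fitted difference was -1.82 ± 0.18 (SE, limma adjusted p = 1.7e-06). Leaving out any 1 of the 7 arrays kept the call, with a highest adjusted p of 7.4e-05 (limma). Mif and 1190007I07Rik were also the 2 autosomal genes whose 16 knockout and 14 wild-type arrays did not overlap over all 30 arrays of the study. Over those arrays 1190007I07Rik ranged from 4.14 to 4.41 in the knockouts and from 5.17 to 6.29 in the wild types. Ordered by position, it was gene 356 and Mif gene 224 of the 563 tested genes on chromosome 10. None of the 5 tested genes on either side of Mif was called, Ddt among them, and Zfp280b was the one of these 10 whose groups did not overlap, at -0.27 ± 0.15 (SE).

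Trappc2l encodes a subunit of TRAPP, the complex that tethers transport vesicles to the Golgi. Its log2 level was 9.0, 8.44, 8.44 and 8.67 in the knockouts and 9.84, 9.57 and 9.46 in the wild types, without overlap. The difference was -0.98 ± 0.16 (SE, limma adjusted p = 0.0070), and it was -0.84 and -0.91 within the slides that held both genotypes. Without wild-type replicate 1 it was -0.88 and no longer called (adjusted p = 0.14, limma). The call also ended with slide as a fixed block (adjusted p = 0.064) and with Xist as a covariate (0.21), both by limma, at differences of -0.95 and -0.98. Fits of the 2 compared groups alone and of the 13 spleen arrays alone ended it too (adjusted p = 0.66 and 0.17, limma). The same direction held in leukaemic marrow (-0.55), non-leukaemic spleen (-0.70) and non-leukaemic marrow (-0.91, called). Of the 20 tested genes of the TRAPP and COG tethering complexes 14 were lower, with a median of -0.08 against -0.01 over all autosomal genes. Trappc12, another TRAPP subunit, was at 5.58, 5.35, 4.33 and 4.35 against 6.13, 6.41 and 6.13, a difference of -1.32 ± 0.30 (SE) that missed the threshold (limma adjusted p = 0.14). A second Trappc12 probe went the opposite way without overlap (1.01 ± 0.23, SE), detected on all 4 knockout and none of the 3 wild-type arrays, so Trappc12 has no settled direction.

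Coa6, an assembly factor of cytochrome c oxidase, the last enzyme of the respiratory chain, fell in leukaemic spleen. Its log2 level was 7.53, 7.81, 7.41 and 7.86 in the knockouts and 8.6, 8.20 and 8.55 in the wild types. The 4 knockout arrays lay below the wild types and also below each of the other 26 arrays of the study, the lowest of which was at 8.01. The difference was -0.80 ± 0.15 (SE, limma adjusted p = 0.039). The call was lost without knockout replicate 1 (adjusted p = 0.15), knockout replicate 3 (0.13), wild-type replicate 1 (0.32) or wild-type replicate 3 (0.11), all by limma. It was also lost with slide as a fixed block (-0.73, adjusted p = 0.20) and with Xist as a covariate (-0.74, adjusted p = 0.88), and within the slides that held both genotypes the difference was -1.06 and -0.34. Fits of the compared groups alone and of the 13 spleen arrays alone lost the call too (adjusted p = 0.88 and 0.31, limma). In the other Mif comparisons Coa6 differed by -0.02 in leukaemic marrow, and without leukaemia by -0.22 in spleen and 0.13 in marrow, none of them called. The test of the difference between leukaemic spleen and leukaemic marrow gave -0.77 ± 0.19 (SE), with an unadjusted p of 0.00044 that did not survive adjustment (limma adjusted p = 0.998).

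Zfp979 encodes a zinc finger protein on chromosome 4, and its neighbour in the order of tested genes, Zfp985, moved with it. Zfp979 was at 4.44, 4.5, 4.31 and 4.37 in the knockouts and 6.85, 6.28 and 6.06 in the wild types. All knockout arrays were below all wild-type arrays, and the difference was -1.99 ± 0.36 (SE, limma adjusted p = 0.033). A second Zfp979 probe gave -2.11. This call was fragile: leaving out 1 array ended it in 6 of 7 cases, with adjusted p up to 0.32 (without wild-type replicate 1), and it held without wild-type replicate 3 (0.024, limma). It ended with slide as a fixed block (adjusted p = 0.058, limma) and with Xist as a covariate (-1.51, adjusted p = 0.90, limma). Zfp985 was at 4.18, 4.13, 4.26 and 4.17, detected on none of the knockout arrays, against 7.72, 7.66 and 7.18, at least 8.6-fold lower (limma adjusted p = 0.084). The 250 bases before the start of each gene are shown because these 2 stretches are alike. They lie outside the transcripts, so their likeness does not tell whether a probe of one gene also reads the other. Capitals mark bases that differ or are unpaired in their alignment, both read 5′ to 3′ on the gene's strand from RefSeq (GRCm38.p6).
Zfp985 (chr4:147553027-147553276, plus strand): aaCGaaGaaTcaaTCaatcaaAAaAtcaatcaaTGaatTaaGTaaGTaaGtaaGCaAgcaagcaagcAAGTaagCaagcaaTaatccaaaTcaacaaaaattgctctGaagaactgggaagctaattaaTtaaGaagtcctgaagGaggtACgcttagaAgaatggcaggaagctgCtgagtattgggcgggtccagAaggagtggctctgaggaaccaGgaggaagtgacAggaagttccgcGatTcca
Zfp979 (chr4:147642509-147642758, minus strand): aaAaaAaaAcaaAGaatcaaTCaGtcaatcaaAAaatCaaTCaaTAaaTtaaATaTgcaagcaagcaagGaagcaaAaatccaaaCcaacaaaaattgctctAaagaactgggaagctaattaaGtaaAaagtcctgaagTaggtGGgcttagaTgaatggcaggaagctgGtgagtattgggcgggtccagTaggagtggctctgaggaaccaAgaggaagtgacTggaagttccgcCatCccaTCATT
Of 255 aligned columns 210 were identical (82.4%), 35 were mismatches and 10 were gaps. How far each probe tells the 2 transcripts apart was not tested.

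The genes with the next smallest p did not pass the test and are given as values. Those lower in the knockouts were Cap1 (-4.16 ± 0.82, SE), a regulator of actin turnover, Zfp985, Emc2 (-0.52 ± 0.11), a subunit of the membrane protein insertase of the endoplasmic reticulum, Masp2 (-0.47 ± 0.10), a protease of the lectin pathway of complement, and Col18a1 (-1.13 ± 0.24), the collagen from which endostatin is cut. Cap1 showed the widest gap, at 6.36, 7.49, 7.86 and 8.20 against 12.02, 11.54 and 11.37 (limma adjusted p = 0.070). Its knockout arrays all lay below the wild types, and no second Cap1 probe was kept. Masp2 was detected on no knockout array and lay at least 1.19-fold lower, and its second kept probe, detected on none of the 7 arrays, gave -0.03.

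Genes higher in the knockouts were Tmem71 (2.20 ± 0.49, SE), 4930455G09Rik (2.14 ± 0.45), Gpn2 (1.75 ± 0.43), St3gal1 (1.73 ± 0.40), Manbal (1.71 ± 0.40), Tmem106b (1.46 ± 0.36), C1galt1 (1.31 ± 0.30), Zfp933 (0.95 ± 0.23), Miip (0.70 ± 0.15) and Atg16l1 (0.41 ± 0.10). None was called, with limma adjusted p from 0.084 to 0.23. Tmem71, a membrane protein gene on chromosome 15, was at 6.81, 6.88, 6.65 and 7.12 against 4.57, 4.62 and 4.81, without overlap. C1galt1 and St3gal1 act one after the other on O-linked sugars: C1galt1 adds galactose to make the core structure and St3gal1 caps it with sialic acid. C1galt1 was at 9.73, 9.19, 9.69 and 9.40 against 8.07, 8.29 and 8.21, and St3gal1 at 7.05, 6.10, 6.53 and 7.10 against 5.30, 5.06 and 4.53, both without overlap. A second kept probe of each gave -0.18 and 0.08, so the probes of these genes disagreed. Tmem106b, a lysosomal membrane protein, was detected on all knockout and no wild-type arrays, at least 2.49-fold higher, and its second probe gave 0.22. The other probes of Zfp933 gave 0.64 and -0.11, and that of Atg16l1 gave -0.04.

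**Figure D1:**
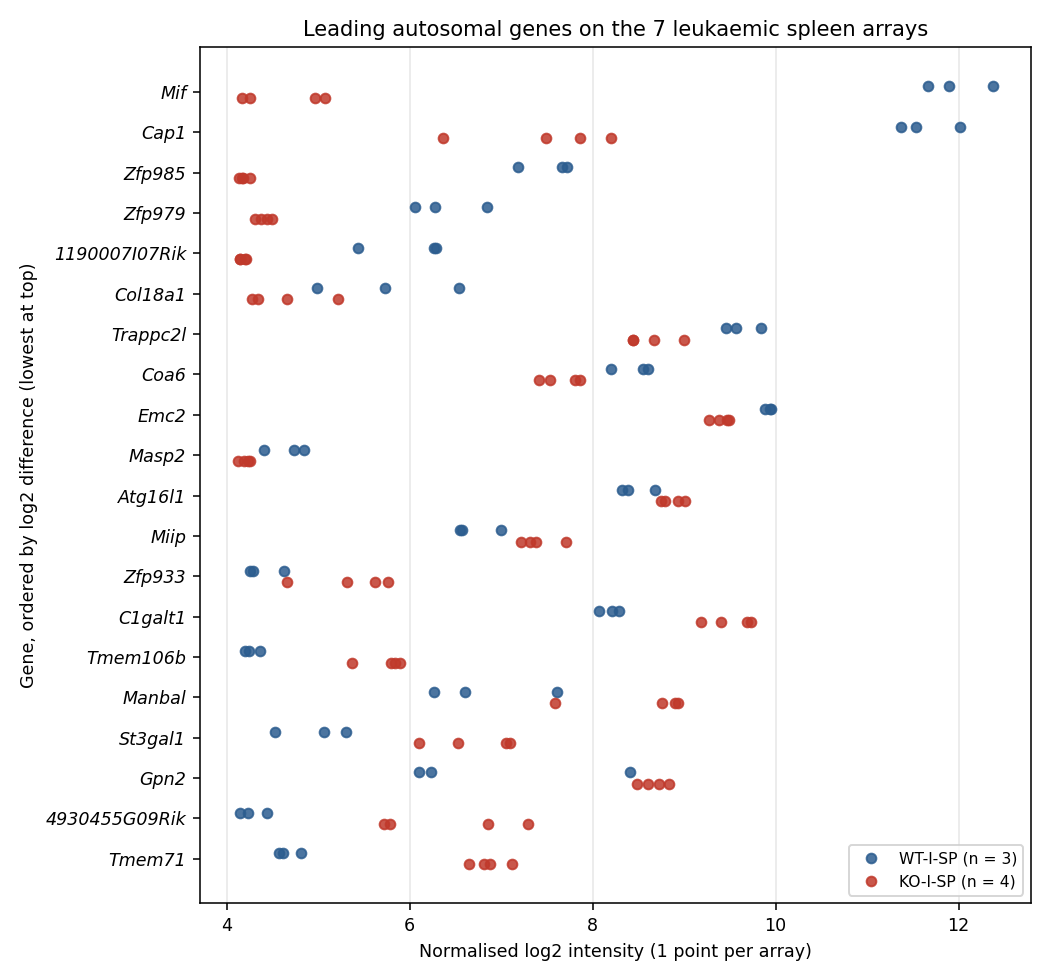
Normalised log2 intensity (x axis) of the 20 leading autosomal genes (y axis, ordered by the difference) on the 7 leukaemic spleen arrays, 1 point per array, knockouts in red and wild types in blue. The groups do not overlap except at Manbal and Col18a1, and at Gpn2 1 wild-type array at 8.41 lies close to the knockouts.

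Wild-type replicate 3 lay near the knockouts for some of these genes. Gpn2, a GTPase gene on chromosome 4, was at 6.10, 6.24 and 8.41 in the wild types and between 8.49 and 8.84 in the knockouts. Casp9, the initiator caspase of the mitochondrial death pathway, also on chromosome 4, was at 4.35, 4.57 and 8.62 in the wild types and at 9.18, 9.03, 8.66 and 9.19 in the knockouts (3.17 ± 0.81, SE, limma adjusted p = 0.26). Its 3 kept probes disagreed, the other 2 giving 0.84 and -0.36. Without wild-type replicate 3, Casp9, Gpn2, Miip, Masp2 and Col18a1 were called. In leukaemic marrow 4 of the 5 wild-type arrays lay near the knockouts for both genes, with Casp9 at 4.28 and Gpn2 at 6.17 on replicate 1 and between 8.58 and 8.69 and between 8.28 and 8.4 on the others.

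The leading genes were gathered on few chromosomes. Of the 20 genes 8 lay on chromosome 4, which held 6.04% of the tested genes, 3 each on chromosomes 10 and 15, and 2 each on chromosomes 6 and 8. Zfp985, Zfp979, Zfp933 and Miip were 4 genes in a row on chromosome 4, numbers 621 to 624 of its 721 tested genes, the first pair lower and the second pair higher in the knockouts. 4930455G09Rik was number 609 and Masp2 number 639. On chromosome 4 the groups did not overlap at 51 genes (7.07%), against 4.93% over all autosomes, and at 10 of the 51 the difference exceeded 1 log2 unit. The 20 genes were chosen by their p in these arrays, so their shares per chromosome are a description.

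Most of these differences were also present outside leukaemic spleen. The arrays there were not in the contrast that ranked the genes. They did enter the choice through the shared spread, the detection filter and the pick of the brightest probe. Leaving Mif aside, 18 of the 19 genes had the same direction in leukaemic marrow, 18 in the spleen and 17 in the marrow of mice without leukaemia, and 17 had it in all of them, against 14.6% of all autosomal genes. The exceptions were Coa6 and Col18a1. Of the 19 genes 2 were called in leukaemic marrow (background 0.0434%), 9 in the spleen (0.252%) and 6 in the marrow (0.0781%) without leukaemia, by limma adjusted p under 0.05. The 4 comparisons share no arrays, though they share the estimate of the spread. In non-leukaemic spleen Cap1 differed by -4.44 and Tmem71 by 2.52, while Casp9 and 4930455G09Rik, detected on no wild-type array there, were at least 27.1-fold and 5.76-fold higher. All 4 were called.

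In leukaemic marrow the wild-type arrays themselves were divided. Zfp985 was at 7.90 and 7.46 on wild-type marrow replicates 1 and 2 and at 4.12, 4.24 and 4.16 on replicates 3, 4 and 5, close to the knockout arrays of the study (4.13 to 4.26). Tmem71 showed the same division, at 4.45 and 4.62 against 6.92, 7.18 and 7.57, where the 16 knockout arrays spanned 6.55 to 7.56. Of the 20 leading genes 18 had at least 1 wild-type marrow array among the knockouts, Mif and 1190007I07Rik being the others, and 8 had a wild-type leukaemic spleen array there. Wild-type marrow replicates 3, 4 and 5 were all hybridised on slide 6, with knockout marrow replicates 4, 5 and 6, and replicates 1 and 2 on slides 2 and 4. For Zfp985 and Tmem71 the division therefore falls together with the slide among the wild types, and the 2 cannot be told apart there. Knockout marrow arrays on slide 6 were at 7.49, 7.56 and 7.49 for Tmem71, against 7.33, 6.85 and 7.31 on other slides. For Zfp985, undetected in them, they were at 4.19, 4.14 and 4.17 against 4.18, 4.14 and 4.13. The part of the slide was not tested. Not every leading gene divided in this way. On wild-type marrow replicate 2, on slide 4, Gpn2 was at 8.33 and Manbal at 7.67, both among the knockouts.

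**Figure D2:**
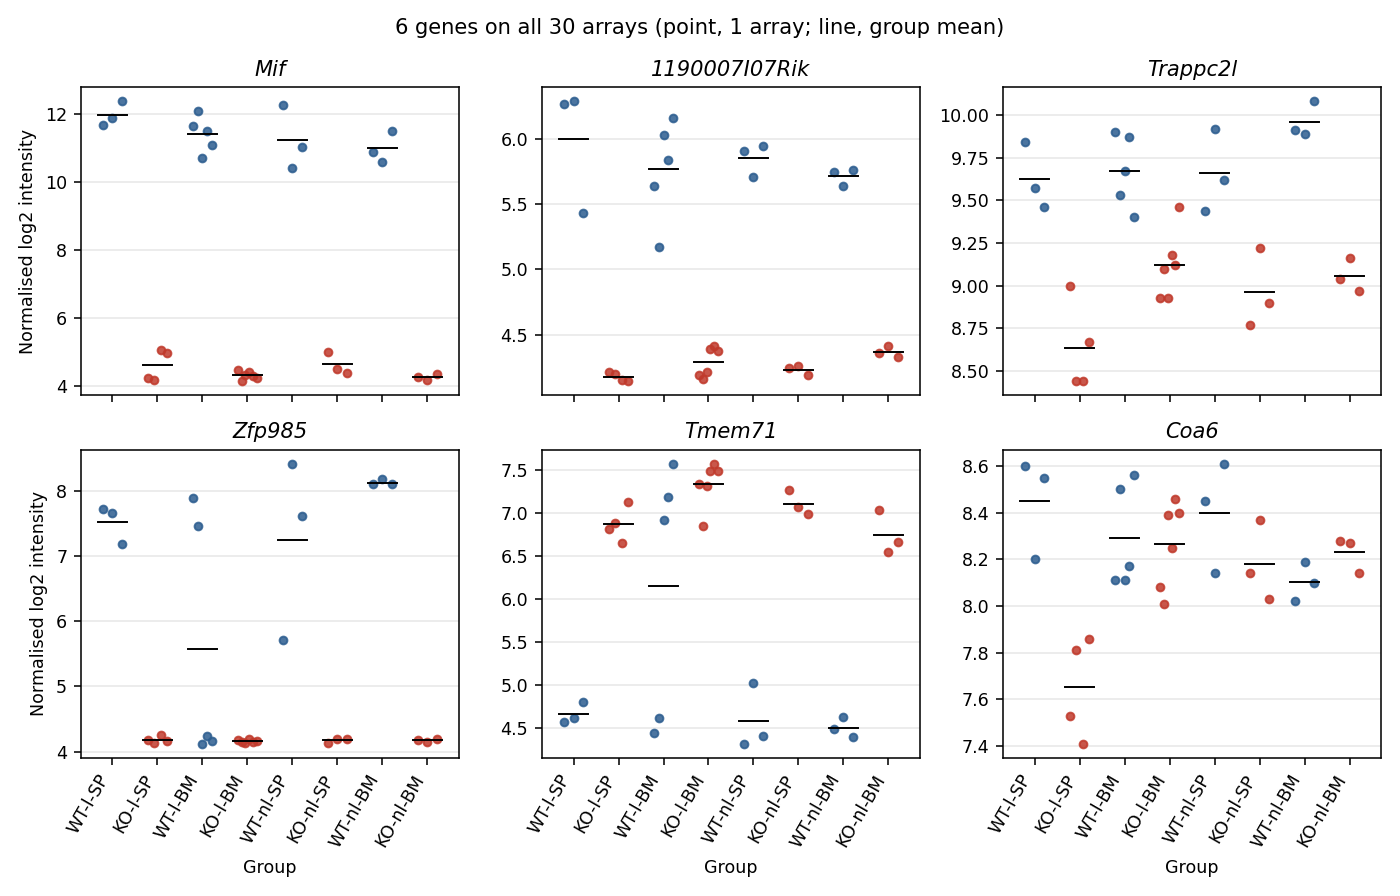
Normalised log2 intensity (y axis) of 6 genes in the 8 groups (x axis), with 1 point per array, the group mean as a line, knockouts in red and wild types in blue. Mif and 1190007I07Rik separate the genotypes on all 30 arrays, Zfp985 and Tmem71 divide the wild-type leukaemic marrow arrays 2 against 3, and Coa6 is lowest on the 4 knockout arrays of leukaemic spleen.

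The difference between tissues and between disease states was tested directly. No autosomal gene was called for a Mif difference that departed between leukaemic spleen and leukaemic marrow (limma, 483 genes at an unadjusted p under 0.05, 4.19%), or between leukaemic and non-leukaemic spleen (794 genes, 6.89%). Against non-leukaemic spleen, leaving out wild-type non-leukaemic spleen replicate 2 gave 61 called genes (57 higher, 4 lower). Leaving out wild-type leukaemic spleen replicate 3 gave 1, and every other fit gave none. The fit with 61 calls leaves wild-type non-leukaemic replicates 1 and 3, which were unlike. Their classical monocyte means were 6.68 and 9.66 and their complement means 8.36 and 5.80. The part of this in the 61 calls was not tested. Among the leading genes Coa6 had the smallest p against marrow, and Col18a1 the smallest against non-leukaemic spleen. Col18a1 was at 4.34, 4.66, 5.22 and 4.28 in the knockouts and 5.73, 6.54 and 4.99 in the wild types of leukaemic spleen. It differed by 0.03 in leukaemic marrow and 0.36 in non-leukaemic spleen, and the 2 tests gave -1.16 ± 0.31 and -1.49 ± 0.35 (SE, unadjusted p 0.00087 and 0.00028, limma adjusted p 0.998 and 0.48).

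The genes of oxidative phosphorylation lay lower in the knockouts as a group. This is the pathway by which mitochondria pass electrons along complexes I to IV and use the proton gradient to make ATP. Of the 47 tested genes 41 were lower, against 52.2% of all autosomal genes, and their median difference was -0.18 against -0.01. The groups did not overlap at 6 of them, all lower (12.8%, against 2.95% of autosomal genes), and Coa6 was the 1 that passed the test. Without Coa6 the median was -0.17, with 40 of 46 lower. The median stayed between -0.26 and -0.12 when each of the 7 arrays was left out in turn. On the slides that held 1 array of each genotype it was -0.06 (slide 1) and -0.42 (slide 3). These counts are a description, with no test of the list.

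The 6 genes without overlap were all subunits or assembly factors of cytochrome c oxidase, in a grouping by gene name made after the values were seen. The nuclear-coded subunits Cox4 to Cox8 had 6 of 7 genes lower and a median of -0.31. The 3 subunit genes whose groups did not overlap were Cox6c (-0.65 ± 0.23, SE), Cox7a2 (-0.65 ± 0.21) and Cox5a (-0.56 ± 0.17). Cox5a was at 10.80, 11.02, 10.78 and 10.52 in the knockouts and 11.23, 11.20 and 11.57 in the wild types. The assembly factors Sco1, which delivers copper (-0.36 ± 0.13), and Coa3 (-0.36 ± 0.18) were also without overlap, and Surf1, another assembly factor, was higher by 0.13. Apart from Coa6, none of them passed the test (limma adjusted p from 0.63 upwards for Cox5a, Cox6c, Cox7a2, Sco1 and Coa3). Complex I had 16 of 17 genes lower with a median of -0.15, ATP synthase 9 of 10 with -0.19, complex II 3 of 3 with -0.13 and complex III 3 of 5 with -0.04.

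The other Mif comparisons gave different medians for the pathway, and the difference between them was not tested for the list. Its median was 0.02 in leukaemic marrow (22 of 47 lower), 0.19 in non-leukaemic spleen (5 of 47) and -0.07 in non-leukaemic marrow (35 of 47). The mean log2 level of the list was 9.08, 9.27, 8.91 and 8.89 on the knockout arrays of leukaemic spleen and 9.21, 9.31 and 9.18 on the wild types, so the groups overlapped at replicate 2 of the knockouts. Fewer cells of a type and less RNA per cell cannot be told apart in sorted bulk samples.

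**Figure D3:**
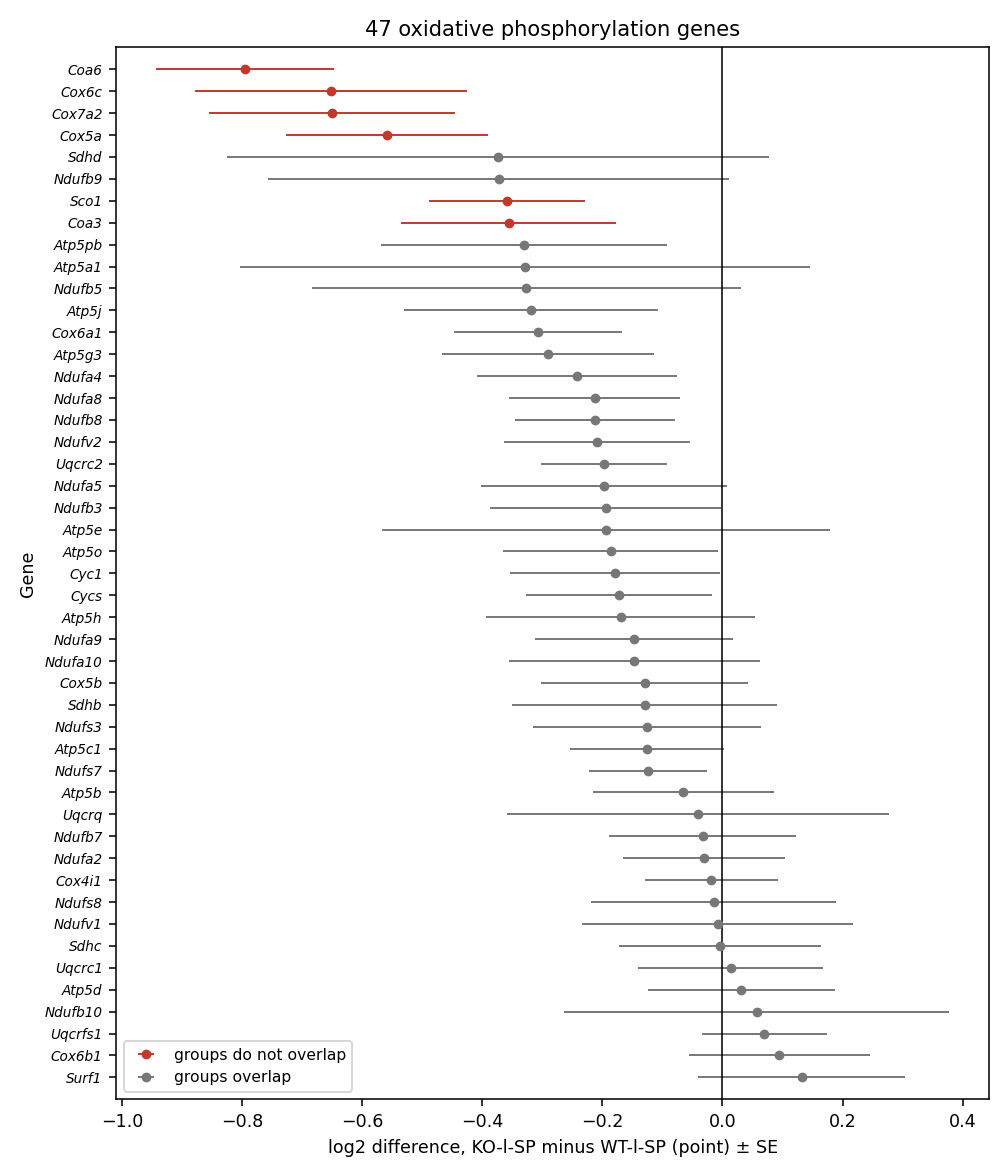
The log2 difference, KO-l-SP minus WT-l-SP (x axis), of 47 oxidative phosphorylation genes (y axis), points with ± 1 SE from the limma fit, red where the groups do not overlap. Of the points 41 lie left of 0, Coa6 farthest at -0.80, and Surf1 lies farthest right at 0.13.

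The Mif receptors and homologue showed no difference that passed the test. Cd74 was at 0.38 ± 0.88 (SE), Cd44 at 0.03 ± 0.32, Cxcr2 at -0.18 ± 1.06, Cxcr4 at 0.06 ± 0.56 and Ddt, the Mif homologue, at -0.12 ± 0.30. These intervals are wide, and the limma adjusted p was 0.996 for each. The signs of Cd44 and Cxcr4 turned with 75th percentile scaling (-0.21 and -0.13).

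Macrophage genes did not move together. Of 15 macrophage identity genes 8 were higher and 7 lower, with a median of 0.00, and of 18 red pulp and marginal zone genes 9 were higher and 9 lower, median 0.00. None was called. Mrc1, the mannose receptor, was at 1.09 ± 0.54 (SE), Fcer1g, the common signalling chain of Fc receptors, at -0.35 ± 0.19, Hmox1, the haem-degrading oxygenase, at 0.96 ± 0.55, and the lipid-sensing receptor Nr1h3 at -1.33 ± 0.71. Fc receptor genes leaned higher, 6 of 7 with a median of 0.55, among them Fcgr3 at 0.55 ± 0.27, and no group was free of overlap. MHC class II presentation genes leaned the same way, 12 of 14 with a median of 0.40, including H2-DMb2 at 0.95 ± 0.58 and H2-DMa at 0.50 ± 0.48. A second H2-DMb2 probe, detected on all arrays of both groups, gave 0.05, and a second H2-DMa probe gave 0.44. Leaving out wild-type replicate 3 took the Fc receptor median to 0.27 and the class II median to 0.08. With the Xist level of each array as a covariate, a fit that cannot separate sex from genotype here, they were 0.27 and -0.97.

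Inflammatory and activation lists differed in direction, and no member passed the test. NF-kB and inflammatory cytokine genes were divided 11 against 11 (median -0.01), and Cxcl2, a neutrophil-attracting chemokine, was at -1.90 ± 0.88 (SE) and the interleukin 1 antagonist Il1rn at -1.12 ± 0.53, the second without overlap. Alternative activation and suppression genes were higher in 17 of 24 (median 0.14, Il10ra at 0.89 ± 0.49), chemokines in 13 of 18 (median 0.18), and Toll-like receptor signalling genes in 9 of 16 (median 0.09, with the inhibitor Irak3 at -1.06 ± 0.46). Interferon response genes were lower in 22 of 37 with a median of -0.08 (Ddx58 at -0.67 ± 0.34). Immediate-early genes were higher in 16 of 19 with a median of 0.29 (Jund at 0.69 ± 0.38, Ier3 at 0.97 ± 0.68). Leaving out knockout replicate 4 took their median to -0.01. Heat shock chaperones were lower in 10 of 15 with a median of -0.19, while Hspa1a was at 2.03 ± 0.92 and Hspe1, the mitochondrial co-chaperonin, at -0.60 ± 0.28 without overlap.

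Proliferation genes were lower on balance, but the arrays of each group were divided. Of 42 DNA replication genes 39 were lower, median -0.23, and of 34 mitosis genes 32 were lower, median -0.29; none was called. Gins3, a subunit of the replicative helicase, was at -0.43 ± 0.20 (SE), Rpa3 at -0.54 ± 0.28, the kinetochore gene Spc24 at -0.51 ± 0.23 and the motor Kif18a at -0.64 ± 0.45. A second kept probe of Spc24 and one of Kif18a each gave 0.05. The mean log2 level of the replication list was 7.17, 8.16, 8.0 and 6.78 in the knockouts and 6.96, 8.10 and 8.27 in the wild types, so each group held low and high arrays. Without knockout replicate 4 the replication median was 0.01, and without wild-type replicate 3 the mitosis median was 0.13. Within slide 1 the replication median was 0.13 and within slide 3 -1.38. The erythroid list lay high on some of the same arrays, at 7.8, 9.70, 9.07 and 7.07 against 7.27, 9.34 and 8.02, with 15 of 22 genes higher, and its part in the proliferation values was not tested. G1 regulators were divided 9 against 10, with the cyclin-dependent kinase Cdk6 at -0.31 ± 0.11, detected on none of the 4 knockout and 2 of the 3 wild-type arrays.

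Some metabolic and survival lists other than oxidative phosphorylation held 1 or 2 genes without overlap, and others held none. The share over all autosomal genes was 4.93%, and these counts are a description with no test of the lists. Srebf2, the transcription factor of sterol synthesis, was at 7.27, 7.26, 7.24 and 7.48 against 6.47, 6.77 and 6.22 (0.83 ± 0.21, SE, limma adjusted p = 0.25), and a second Srebf2 probe gave 0.37. Its list had 8 of 14 genes higher and a median of 0.10. Sesn1, a p53 target that restrains mTOR signalling, was at 0.80 ± 0.27 in a list with 10 of 18 higher, and Keap1, the inhibitor of Nrf2, at 0.40 ± 0.15 in one with 10 of 19 higher. The other 3 Keap1 probes gave 0.05, 0.09 and 0.31. Bcl2 family and caspase genes were higher in 10 of 15, ERK and PI3K-Akt genes in 8 of 15, lysosome genes in 18 of 29, autophagy genes in 9 of 18 and unfolded protein response genes in 9 of 17, with medians from -0.02 to 0.10. Glycolysis genes were lower in 11 of 16 (median -0.14), leukotriene and prostaglandin genes in 10 of 14 (-0.15), liver X receptor targets in 6 of 11 (-0.04) and complement genes in 5 of 8 (-0.12). Scavenger and phagocytic receptors were higher in 9 of 14 (0.11) and support factors for leukaemic B cells in 7 of 12 (0.03). No member of these lists was called.

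Markers of other cells varied widely between arrays of 1 genotype. Neutrophil genes had a mean log2 level of 6.84 to 8.78 in the knockouts and 6.15 to 11.1 in the wild types, the highest being wild-type replicate 3, and of 23 genes 16 were lower (median -0.48). Without that replicate the median was 1.25. Csf3r, the receptor of the granulocyte growth factor, was lower without overlap at its brightest probe (-1.26 ± 0.42, SE), while its other 3 probes gave -0.84, 0.24 and 0.35, and S100a9, a cytosolic calcium-binding protein of neutrophils, was at 1.79 ± 0.96. T and NK cell genes had 17 of 20 higher, with levels of 6.29 to 8.5 against 5.45 to 8.03 (Il7r at 1.15 ± 0.74, Cd3e at 1.21 ± 0.93), and their median turned from 0.48 to -0.05 without wild-type replicate 1. B cell genes were near the detection limit, 4.71 to 6.24 against 4.72 to 4.78, with 12 of 15 higher. The highest B cell level was knockout replicate 2, where Ly6d reached 7.43, and Cd22 was at 0.86 ± 0.38. Basophil and mast cell genes spanned 5.14 to 8.85 against 5.47 to 8.54, 6 of 8 higher, with Kit at -0.99 ± 1.15.

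Megakaryocyte and platelet genes were higher in 10 of 14, with a median of 0.32 and levels of 5.81 to 6.33 against 5.49 to 5.83. Tubb1, the platelet tubulin, was at 6.18, 6.06, 5.96 and 6.48 against 4.80, 5.32 and 4.64, without overlap (1.25 ± 0.39, SE), and the integrin chain Itga2b at 1.22 ± 0.52. Erythroid Tspan33 was at 0.86 ± 1.03. Dendritic cell genes were higher in 14 of 16 (median 0.23), plasma cell genes in 5 of 6 (0.04) and eosinophil genes in 4 of 8 (-0.01). Classical monocyte genes were lower in 7 of 10 (-0.12), non-classical monocyte genes in 5 of 9 (-0.03) and stromal and endothelial genes in 8 of 14 (-0.01). No member of the cell type lists was called, and the part of these cells in the other differences was not tested.

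**Figure D4:**
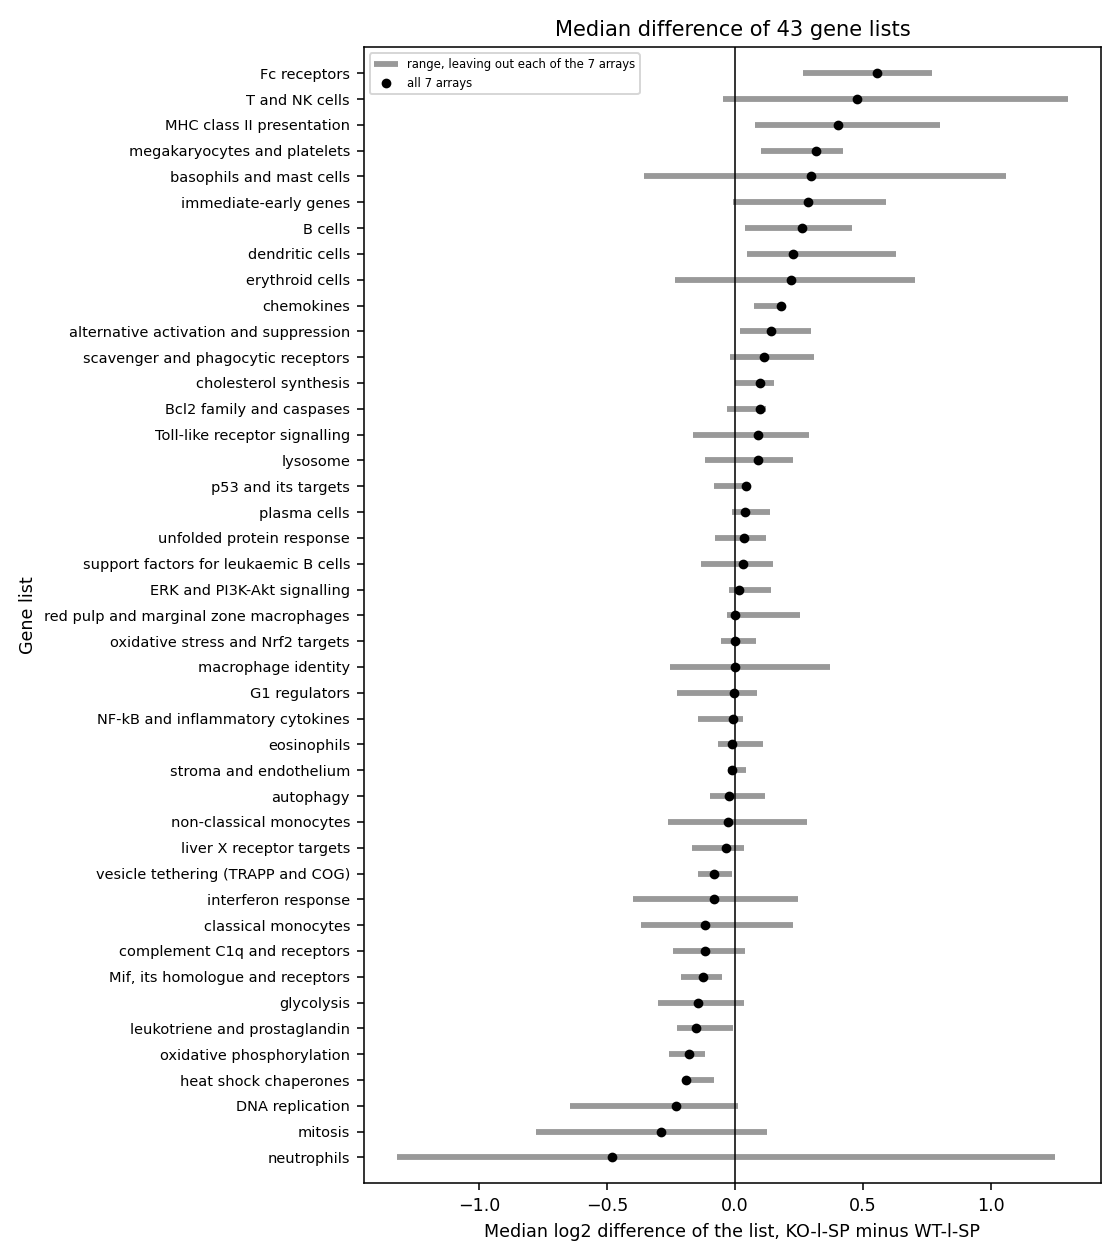
Median log2 difference, KO-l-SP minus WT-l-SP (x axis), of 43 gene lists (y axis): points for all 7 arrays and grey bars for the range when each array is left out in turn. The neutrophil list spans -1.32 to 1.25, whereas oxidative phosphorylation stays between -0.26 and -0.12 and Fc receptors between 0.27 and 0.77.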

How the data were processed

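Total RNA of the sorted cells was labelled as biotin cRNA and hybridised to bead arrays, per the labels' protocols. Linear, unnormalised probe intensity was deposited by the authors for 45281 probes. A detection p-value stands beside each deposited intensity. The authors' own log2 values, deposited separately, were made with Partek per the submitters' processing notes, and how they were normalised is not stated in the sources read. Their median was 6.41 on every array. Their correlation with log2 intensity of the same array (0.99 to 0.997) settles scale and direction but not centring. By median over genes, slide accounted for 0.191% of variance inside groups in them and 24.2% in the values used here, so they were fitted without slide. Slide differences had thus been nearly removed from them beforehand, by a step the sources read do not state. Their fit does not count that step, so its p-values may be too small. With 6 slides over 30 arrays, part of the 24.2% arises by chance. The consensus correlation between arrays of 1 slide was 0.016 in the values used here.

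The neqc function of limma 3.58.1 (R 4.3.3, offset 16) corrected background and normalised quantiles. Raw median intensity was 76.5 to 96.8 per array; precision is limited by the number of arrays. A probe was kept if 3 or more arrays detected it at p under 0.05 (23515 probes). The platform annotation gave 34885 probes 1 symbol, 18 several and 10378 none; 34807 matched RefSeq GRCm38.p6 by gene ID. The brightest kept probe stood for each gene, leaving 11937. For a probe undetected throughout a group, folds are lower bounds, set against each array's lowest detected signal. A limma model of all 8 groups gave 1 shared spread, with Benjamini-Hochberg adjustment over all genes. The fit was tested on simulated data.

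Named were Mif, Adgre1, the Mif receptors, Ddt, the genes beside Mif, called genes, the autosomal genes of smallest p up to 10 per direction (where most arrays of the higher group detected them), and of each list up to 2 members with the smallest p. Cox6c, Cox7a2, Sco1, Coa3, Surf1 and the genes marking sex were named after their values were seen. The comparison, lists and rules were chosen with earlier results of these data known. Alternatives were the authors' values, no background correction, 75th percentile scaling, other filters, slide or replicate number as a block, smaller fits, array weights, all kept probes, Xist as a covariate, and arrays left out. Same-numbered arrays of the 2 groups deviated together at r of 0.482, 0.000176 and 0.444, so the numbers were not taken as pairs.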

Additional observations from a re-analysis of the deposited data

Results flagged for a closer look

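In the 4 knockout arrays of leukaemic spleen, 1 array stood far from the other 3 for 6 of the 71 genes and 1 of the 43 list means checked, where the gap to the nearest array exceeded Dixon's critical share of the range; chance flags about 1 in 20 groups. Replicate 2 was the array at Tmem106b (5.37, the others 5.80 to 5.89), Ddx58 (4.94, the others 5.97 to 6.05), Ly6d (7.43, the others 4.35 to 4.86) and Sco1 (6.28, the others 6.43 to 6.45), and at the heat shock chaperone mean (7.61, the others 8.02 to 8.07). Replicate 3 was the array at Manbal (7.59, the others 8.76 to 8.93), and replicate 4 at Srebf2 (7.48, the others 7.24 to 7.27). Outside the autosomal comparison, 3 of the 4 tested genes of the Y chromosome were higher in all knockout than in all wild-type arrays of leukaemic spleen. Eif2s3y was higher by 4.42 log2 units and Kdm5d by 1.28, the lowest knockout arrays at 8.12 and 5.26 and the highest wild types at 4.25 and 4.24. Uty was also without overlap, at 4.49 to 4.73 against 4.27 to 4.34.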

How the results depend on the processing

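The count of 5 called autosomal genes in leukaemic spleen was 31 on the authors' values (14 higher, 17 lower). Those values held almost no slide variance, and their fit did not count its removal, so 31 may be too many. The count was 22 with array weights (9 and 13) and 11 without knockout replicate 2 and wild-type replicate 3 (4 and 7). It was 8 with 75th percentile scaling, 3 without a filter, 3 with slide as a fixed block, 2 with the strict filter and 2 with Xist as a covariate. Leaving out 1 array gave 2 to 13 calls. With the replicate number as a block there were 7. The difference from leukaemic marrow had 0 calls in every fit. The difference from non-leukaemic spleen had 0 to 61 when 1 array was left out, 61 without wild-type non-leukaemic spleen replicate 2 and 1 without wild-type leukaemic replicate 3. Genes without overlap numbered 1005 on the authors' values and 910 with 75th percentile scaling. With 1 array fewer they numbered 939 to 1388. That count cannot fall when an array is dropped, so its rise says nothing about stability. Mif was called in 22 of 22 alternatives, 1190007I07Rik in 20 of 21 (adjusted p = 0.10, limma, with only the compared groups), Trappc2l in 17 of 22, Zfp979 in 9 of 21 and Coa6 in 9 of 22. Slide as a fixed block and Xist as a covariate each ended the calls of Trappc2l, Zfp979 and Coa6, and the cause was not tested. Xist follows genotype in leukaemic spleen, so a call lost or a sign turned in the Xist fit cannot be assigned to sex. Signs turned for uncalled genes. With Xist as a covariate Cd74 was at -1.95, Cd44 at -0.19, Cxcr2 at 1.15, Cxcr4 at -0.74, Il10ra at -0.13, H2-DMb2 at -0.16 and H2-DMa at -0.42. Adgre1 was at 0.10 over all kept probes, and Cd44 at -0.10 there, -0.21 with 75th percentile scaling, -0.0036 with the replicate block and -0.12 without both arrays that stand apart. Cxcr2 was at 0.21 with slide as a block, 0.50 with array weights and 1.02 without both arrays, and Cxcr4 at -0.13 with 75th percentile scaling. With 1 array left out, Adgre1 ranged from -0.68 to 0.46, Ddt from -0.33 to 0.064 (-0.41 without both arrays), Cd44 from -0.34 to 0.36, Cxcr2 from -0.88 to 1.10 and Cxcr4 from -0.10 to 0.25. Of 43 list medians, 7 kept their sign throughout, among them oxidative phosphorylation (-0.36 to -0.12) and Fc receptors (0.27 to 0.77). Probes near background limit what the dim genes can show.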
